A study of Mus musculus with 12 samples.

Results

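The 36 genes described here are activity-regulated immediate early genes, the genes that a neuron switches on soon after it has been strongly stimulated. They were chosen by name, as rows of the count table whose Ensembl identifier carries one of 36 symbols in GENCODE M21. All 36 were found among the 54532 genes of the table, and all 36 were among the 17307 genes that passed the filter on low counts. They fall into 7 AP-1 and related bZIP factors (Fos, Fosb, Fosl2, Jun, Junb, Atf3, Maff), 4 Egr factors (Egr1 to Egr4), 3 Nr4a receptors (Nr4a1 to Nr4a3), 6 other transcription factors (Npas4, Klf2, Klf4, Klf6, Klf10, Csrnp1), 6 late and synaptic effectors (Arc, Bdnf, Homer1, Nptx2, Plk2, Rgs2) and 10 signalling and growth regulators (Ier2, Ier5, Dusp1, Dusp5, Btg2, Sik1, Gadd45b, Gadd45g, Trib1, Tiparp).

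Messenger RNA was sequenced from the frontal cortex of 12 mice aged 9 months. APP/PS1 mice, 3 males and 3 females, were set against APP/PS1/Hras-/- mice, also 3 males and 3 females. All 12 mice carried the APP/PS1 transgenes, an amyloid model of Alzheimer's disease, so every genotype difference below is between transgenic mice with and without Hras, a small GTPase of the Ras family that passes receptor signals to the MAP kinases. No stimulation is named in the labels, and the handling of the mice before the cortex was taken is not given in the sources used here.

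Neuronal firing opens calcium channels and glutamate receptors. Calcium then acts through CaM kinases and the Ras and ERK pathway on CREB and on serum response factor with its partners. These factors are already bound to the promoters of many immediate early genes. The first genes to respond encode transcription factors, and these in turn act on effector genes that work at the synapse. In cortex the transcripts are short-lived, so their level in a piece of tissue follows what the animal experienced shortly before, and Arc, Fos and Egr1 are widely used as marks of recently active neurons.

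The promoters of 28 of the 36 genes were matched by symbol in the RefSeq table of GRCm38.p6. They gave 44 windows of 250 bases before and 50 bases from each start. Arc, Egr1, Egr3, Ier2, Klf10, Nptx2, Sik1 and Trib1 had no entry, so their promoters were not searched. TGACG, the core of the CREB site, was present on either strand in 21 of the 28 genes (75%), against 23.0% of all 27025 genes in the table. By windows it was present in 61.4% of the members' windows and in 20.8% of all 32851. The full site TGACGTCA, which contains TGACG on both strands and so counts for both, was present in Btg2, Dusp1, Maff and Plk2 (14.3% of members against 2.03% of genes). The CArG box, the letters bound by serum response factor, was present in Dusp5 and Egr2 (7.14% against 1.81%). The AP-1 letters TGANTCA were present in Bdnf and Csrnp1 (7.14% against 8.97%), the Egr letters GCGTGGGCG in Maff alone (3.57% against 0.707%), and the Nr4a letters AAAGGTCA in none of the 28 (against 1.70% of genes). A match describes these letters in this window and is not a measured binding site. The 250 bases before the start are shown here for 5 genes of 5 subsets, chosen with the motif counts known, since all 5 hold TGACG and 2 of them hold the CArG box as well. Capitals mark TGACG or its reverse complement CGTCA, and the CArG boxes. In Dusp5 a run of capitals holds 2 CArG boxes side by side, and in Nr4a1 all 4 matches are on the minus strand.
Fos, chr12:85473640-85473889, + strand: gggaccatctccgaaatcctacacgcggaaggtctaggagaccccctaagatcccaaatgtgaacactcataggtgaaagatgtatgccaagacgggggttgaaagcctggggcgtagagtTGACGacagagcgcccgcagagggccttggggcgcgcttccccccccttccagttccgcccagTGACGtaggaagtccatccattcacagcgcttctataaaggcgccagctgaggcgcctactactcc
Egr2, chr10:67537619-67537868, + strand: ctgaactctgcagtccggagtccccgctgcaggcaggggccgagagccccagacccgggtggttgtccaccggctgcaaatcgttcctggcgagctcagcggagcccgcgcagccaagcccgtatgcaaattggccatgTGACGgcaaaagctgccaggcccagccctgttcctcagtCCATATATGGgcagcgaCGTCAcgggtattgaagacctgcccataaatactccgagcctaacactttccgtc
Nr4a1, chr15:101266596-101266845, + strand: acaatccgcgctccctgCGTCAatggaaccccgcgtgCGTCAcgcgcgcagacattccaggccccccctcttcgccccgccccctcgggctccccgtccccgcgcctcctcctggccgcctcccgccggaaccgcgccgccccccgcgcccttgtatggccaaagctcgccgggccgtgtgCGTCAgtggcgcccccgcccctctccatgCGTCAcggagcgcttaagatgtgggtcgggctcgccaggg
Dusp5, chr19:53528895-53529144, + strand: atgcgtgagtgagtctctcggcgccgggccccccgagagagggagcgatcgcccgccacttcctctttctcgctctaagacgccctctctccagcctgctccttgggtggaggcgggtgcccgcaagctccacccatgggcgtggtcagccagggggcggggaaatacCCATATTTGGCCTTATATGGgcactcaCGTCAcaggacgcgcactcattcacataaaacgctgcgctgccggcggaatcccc
Homer1, chr13:93303507-93303756, + strand: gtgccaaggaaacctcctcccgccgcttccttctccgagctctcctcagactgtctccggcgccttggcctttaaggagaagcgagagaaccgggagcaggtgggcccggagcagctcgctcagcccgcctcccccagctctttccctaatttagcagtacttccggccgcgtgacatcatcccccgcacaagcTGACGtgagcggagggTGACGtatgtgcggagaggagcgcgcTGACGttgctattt

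The samples passed the check that the genotype allows. Hras stood at 73.6 to 102 CPM in the 6 APP/PS1 libraries and at 19.4 to 23.4 CPM in the 6 APP/PS1/Hras-/- libraries, where CPM is the count scaled to a common library total after TMM adjustment. Library totals ran from 13984692 to 20174131 counts. Neuron markers were present in every library, with 5401 to 6642 CPM summed over 12 genes of excitatory cortical neurons and 762 to 944 CPM over 9 genes of inhibitory neurons. Markers of neighbouring tissue differed between libraries. The sum of 8 choroid plexus genes was 3113 CPM in APP/PS1 female 2 and 12.1 to 598 CPM elsewhere, the sum of 12 striatal genes ran from 228 to 917 CPM among the APP/PS1 males alone, and Trh, a hypothalamic peptide gene, stood at 10.9 CPM in APP/PS1 female 1, at 17.7 CPM in APP/PS1 female 2 and at 15.6 CPM in APP/PS1/Hras-/- male 1 against at most 2.08 CPM in the other 9 libraries. The sum of the 6 subcortical genes tested, Trh among them, did not set these libraries apart. Its most abundant gene was Lhx2, with a mean of 48.8 CPM over the 12 libraries. Trh was a small part of the sum, which therefore says little about the tissue that Trh marks. The sum was 130 CPM in APP/PS1 female 1, 146 CPM in APP/PS1 female 2 and 133 CPM in APP/PS1/Hras-/- male 1. In the other 9 libraries it was 102 to 166 CPM, highest in APP/PS1 male 2. In such bulk samples, fewer active cells and less RNA per active cell cannot be told apart.

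The genes spanned a wide range of abundance. The mean over the 12 libraries was at least 10 CPM for 30 of the 36, and at least 100 CPM for 6 of them (Egr1, Arc, Nr4a1, Egr3, Homer1 and Plk2). Levels between genes are compared per kilobase of merged exon. On that scale Arc, whose protein drives the internalisation of AMPA receptors, had the highest mean over the 12 libraries, 114 CPM per kb. It was followed by Egr1, a zinc finger factor that passed it in APP/PS1 female 1 and in APP/PS1/Hras-/- males 1 and 2, at 86.6, by Nr4a1, an orphan nuclear receptor, at 56.7, and by Egr3 at 44.8 CPM per kb. Plk2, a kinase that weakens overactive synapses, came next at 41.0 CPM per kb. Fos stood at 24.2, Junb at 22.9 and Ier5 at 21.1 CPM per kb. The lowest were Atf3, a stress-induced bZIP factor, at 0.962 CPM per kb and Maff, a small Maf protein without an activation domain, at 0.544 CPM per kb. Within families the order was wide. Egr1 was followed by Egr3, Egr4 at 7.16 and Egr2 at 5.20 CPM per kb, and Nr4a1 by Nr4a2 at 14.2 and Nr4a3 at 6.93 CPM per kb. The neighbours Fos and Junb, and Egr4 and Egr2, lay closer than the differences between mice reported below.

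The genes differed more from mouse to mouse than most genes of the table. The highest library was at least 2 times the lowest for 26 of the 36 genes, against 31.7% of all genes tested, and at least 3 times for 9. The ratio ran from 1.36 for Rgs2 to 5.14 for Egr2. The SD of log2 CPM between mice of the same genotype and sex had a median of 0.41 over the members and 0.19 over all genes. The biological coefficient of variation of the edgeR fit, which removes counting error, had a median of 0.257 over the members against 0.135 over all genes. It lay above the trend for genes of the same abundance in 28 of the 36 (77.8%), against 23.7% of all genes. By subset this held for 5 of 7 AP-1 and related factors, 4 of 4 Egr factors, 3 of 3 Nr4a receptors, 4 of 6 other transcription factors, 4 of 6 late effectors and 8 of 10 signalling regulators. The most variable was Arc, with an SD of 0.79 on the log2 scale. The steadiest was Klf6, a zinc finger factor, with an SD of 0.08. Plk2 (0.12) and Rgs2 (0.17), a regulator that shortens G protein signals, were also steady, so the late effector subset held both the most variable gene and 2 of the steadiest.

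**Figure D1:**
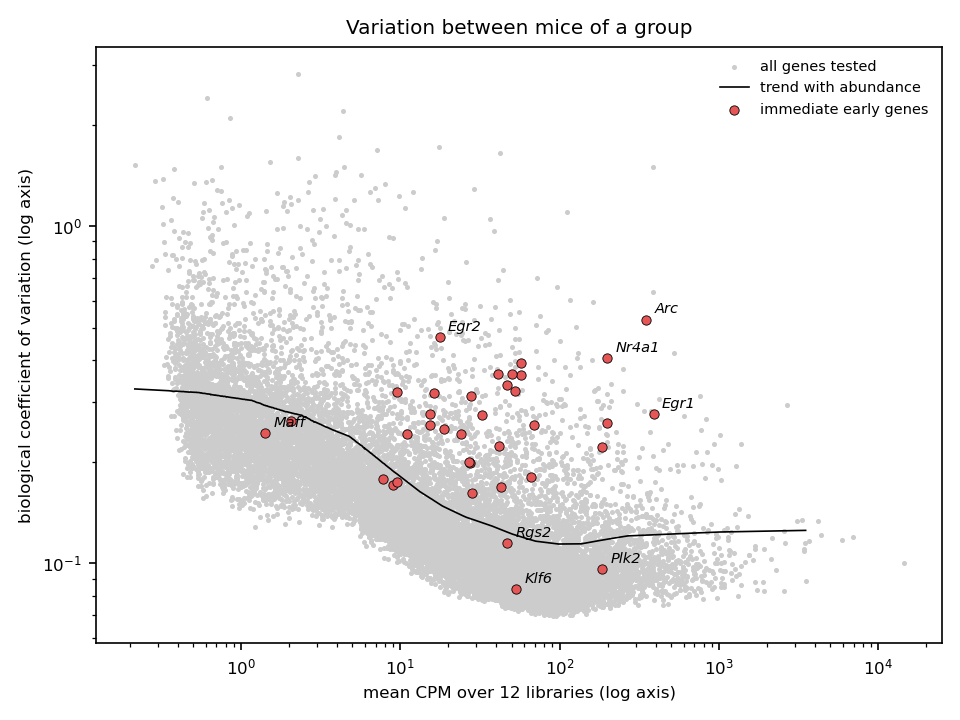
Biological coefficient of variation between mice of a group (y axis, log scale) against mean CPM over 12 libraries (x axis, log scale) for all 17307 genes tested (grey) and the 36 immediate early genes (red), with the trend with abundance as a line. The line is passed by 28 of the 36, with Arc highest and Klf6 lowest.

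The per-mouse values of the genes used as activity marks show where this spread lay. Fos, the founding AP-1 subunit, stood at 54.1, 77.6 and 51.4 CPM in APP/PS1 males 1 to 3, at 30.4, 35.4 and 68.4 in APP/PS1 females, at 43.5, 31.5 and 94.8 in APP/PS1/Hras-/- males and at 76.0, 61.5 and 57.6 in APP/PS1/Hras-/- females. Arc stood at 313, 464 and 344 CPM in APP/PS1 males, at 158, 164 and 623 in APP/PS1 females, at 140.4, 186 and 531 in APP/PS1/Hras-/- males and at 541, 356 and 360.2 in APP/PS1/Hras-/- females. Both genes were low in the first 2 APP/PS1 females and the first 2 APP/PS1/Hras-/- males and high in the third mouse of both groups, so the ranges of all 4 groups overlapped. Egr1 stood at 347, 475 and 419.9 CPM in APP/PS1 males, at 258, 239 and 435 in APP/PS1 females, at 272, 336 and 499.8 in APP/PS1/Hras-/- males and at 661, 342 and 375 in APP/PS1/Hras-/- females. Nr4a1 stood at 226, 252 and 149.7 CPM, then at 98.2, 119.8 and 259, then at 110.0, 127 and 337, and then at 264, 229 and 215 CPM in the same order of groups. The order of mice within the groups was nearly that of Fos, with the third mouse again highest in APP/PS1 females and in APP/PS1/Hras-/- males. Dusp1, a phosphatase that switches MAP kinases off, repeated it once more, with 33.5, 30.4 and 65.1 CPM in APP/PS1 females and 35.4, 26.0 and 82.8 CPM in APP/PS1/Hras-/- males.

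**Figure D2:**
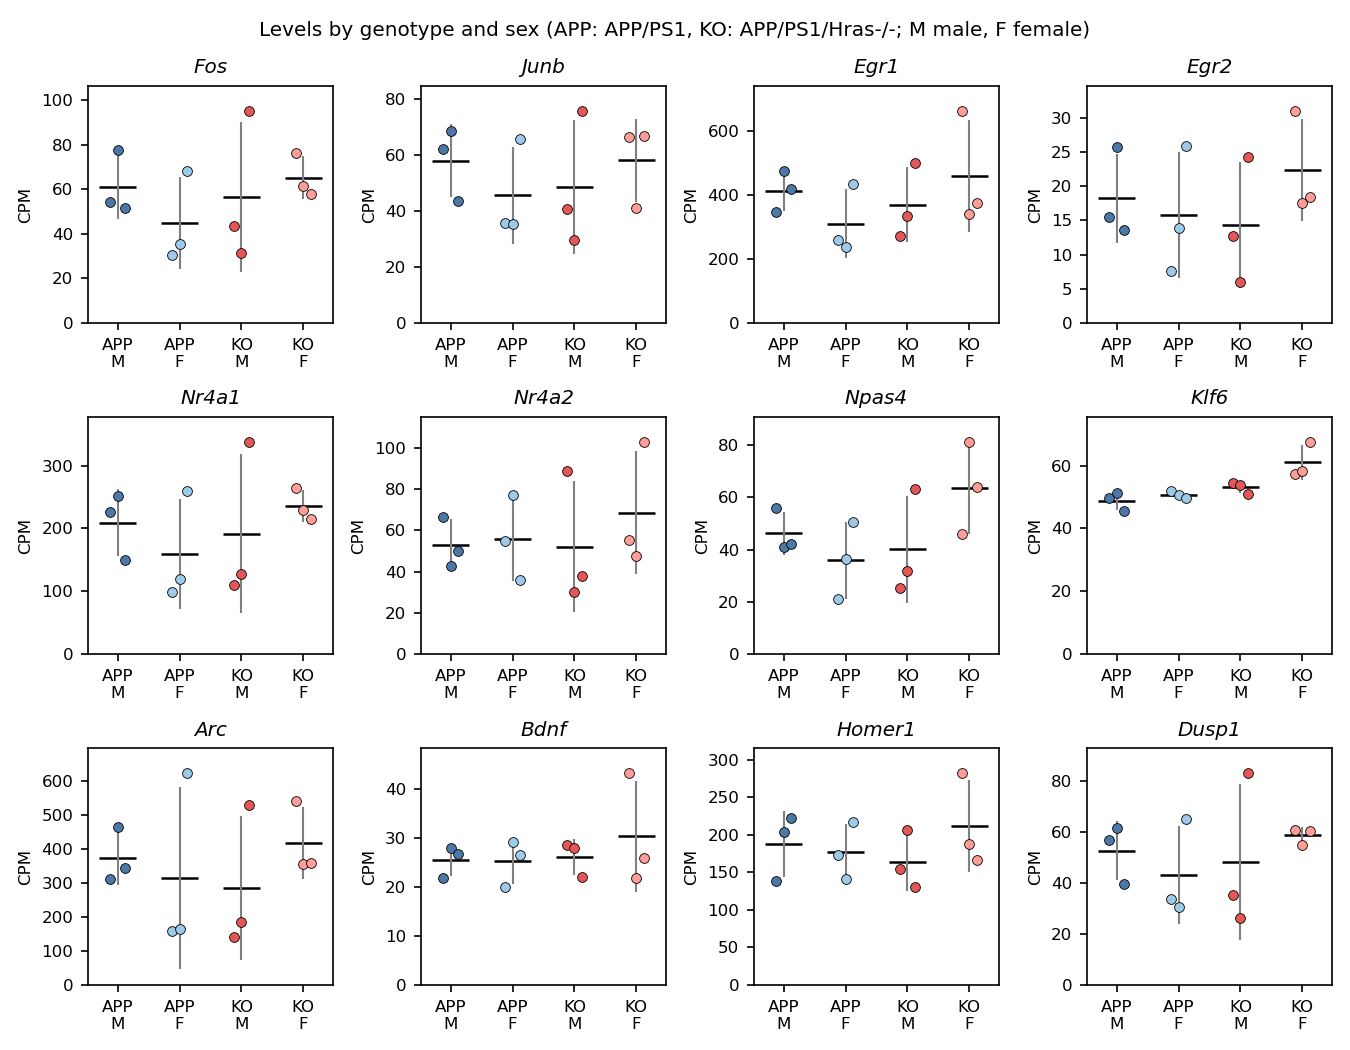
CPM of 12 of the genes (y axes, each from 0) in the 4 groups of genotype and sex (x axes), with a point per mouse, a line at the mean and a bar of 1 SD (n = 3). For Fos, Nr4a1, Arc and Dusp1 the APP/PS1 females and the APP/PS1/Hras-/- males each hold 2 low mice and 1 high mouse.

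Several members did not follow that order or followed it only in part. Jun, which pairs with Fos in AP-1, stood at 29.8, 25.0 and 22.3 CPM in APP/PS1 males, at 30.2, 34.2 and 24.9 in APP/PS1 females, at 37.3, 21.6 and 27.4 in APP/PS1/Hras-/- males and at 25.6, 29.9 and 29.3 in APP/PS1/Hras-/- females. Its highest mouse, APP/PS1/Hras-/- male 1, was the lowest of all for Arc. Nr4a2, a receptor that also marks a set of deep cortical and claustral neurons without stimulation, stood at 66.8, 42.6 and 49.9 CPM in APP/PS1 males, at 54.7, 77.1 and 36 in APP/PS1 females, at 88.8, 30.1 and 37.8 in APP/PS1/Hras-/- males and at 55.2, 47.7 and 103 in APP/PS1/Hras-/- females. Within APP/PS1 females it was lowest in the mouse that was highest for Arc. Npas4, a factor induced by calcium and found almost only in neurons, stood at 55.8, 40.9 and 42.0 CPM, then at 21, 36.3 and 50.5, then at 25.2, 31.8 and 63.4, and then at 45.9, 81.1 and 64.1 CPM in the same order of groups. Its 2 highest mice, APP/PS1/Hras-/- females 2 and 3, were near the middle of the 12 for Fos and Arc. Homer1, whose short form uncouples and whose long forms hold together the postsynaptic scaffold, stood at 139, 204 and 222 CPM, then at 173, 141 and 217, then at 155, 207 and 130.1, and then at 282, 188 and 166 CPM. It was lowest in APP/PS1/Hras-/- male 3, the mouse highest for Fos, and the counts do not separate its short activity-induced form from the long forms.

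The remaining transcription factors had the following levels, given as the mean ± SD of 3 mice per group, first for males and females of APP/PS1 and then for males and females of APP/PS1/Hras-/-. Fosb, a Fos subunit whose truncated product builds up with repeated activity, stood at 30.0 ± 2.25, 23.1 ± 7.65, 26.0 ± 5.05 and 30.2 ± 6.06 CPM. Junb, a Jun subunit, stood at 58.0 ± 12.9, 45.6 ± 17.4, 48.7 ± 24 and 58.2 ± 14.9 CPM. In both genes the APP/PS1 females had the lowest mean and the SDs were as large as most differences between means. Egr2 stood at 18.3 ± 6.5, 15.8 ± 9.24, 14.3 ± 9.25 and 22.3 ± 7.47 CPM. In APP/PS1/Hras-/- mice Egr2 ran from 6.01 CPM in male 2 to 30.9 CPM in female 1, the widest ratio among the members. Nr4a3, the third receptor of its family, stood at 42.6 ± 5.81, 36.5 ± 7.18, 47.9 ± 13.3 and 39.0 ± 13.2 CPM, and was highest in APP/PS1/Hras-/- males. Klf2, which is also a flow-responsive factor of endothelium, stood at 11.1 ± 2.42, 9.01 ± 3.08, 10.9 ± 3.41 and 12.8 ± 1.70 CPM. Klf10 stood at 31.2 ± 8.46, 32.7 ± 6.14, 31.6 ± 8.71 and 33.9 ± 14.7 CPM, and Csrnp1, a nuclear factor first found downstream of axin, at 15.7 ± 2.44, 14.6 ± 6.10, 14.1 ± 4.74 and 17.0 ± 3.78 CPM. For Klf10 and Csrnp1 the group means lay within the SDs of each other.

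The signalling and growth regulators had a like spread. Ier2, a small nuclear protein, stood at 10.5 ± 1.44, 8.19 ± 3.72, 8.63 ± 5.03 and 10.7 ± 1.76 CPM in the same order of groups. Dusp5, a nuclear phosphatase of ERK, stood at 18.0 ± 3.89, 14.7 ± 6.30, 13.7 ± 5.66 and 18.4 ± 6.52 CPM. Both had their lower means in APP/PS1 females and APP/PS1/Hras-/- males, the 2 groups that each held mice low for Fos and Arc. Btg2, an antiproliferative factor that promotes mRNA decay, stood at 37.5 ± 12.7, 36 ± 14.2, 38.8 ± 21.6 and 50.8 ± 7.62 CPM. Sik1, a kinase that restrains CREB coactivators, stood at 24.2 ± 4.92, 21.1 ± 3.09, 26.2 ± 9.36 and 25.1 ± 7.11 CPM. Trib1, a pseudokinase, stood at 28.7 ± 3.74, 28.4 ± 13.2, 23.4 ± 10.2 and 30.9 ± 8.28 CPM. Tiparp, an ADP-ribosyltransferase, had group means from 17.8 to 19.3 CPM, and Gadd45b, a relative of Gadd45g, from 8.82 to 10 CPM. Among the late effectors Rgs2 was level across the groups, at 47.3 ± 7.19, 47.1 ± 3.90, 47.0 ± 4.71 and 46.4 ± 5.16 CPM, while Bdnf stood at 25.6 ± 3.25, 25.3 ± 4.70, 26.2 ± 3.64 and 30.4 ± 11.3 CPM, its last mean and SD holding the 43.2 CPM of APP/PS1/Hras-/- female 1.

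Counted over all 36 genes, libraries differed within each group. The score used is the median over the 36 genes of a library's log2 CPM minus the gene's mean over the 12 libraries. It was 0.05, 0.22 and -0.07 in APP/PS1 males, -0.38, -0.26 and 0.22 in APP/PS1 females, -0.10, -0.32 and 0.29 in APP/PS1/Hras-/- males and 0.47, -0.00 and 0.09 in APP/PS1/Hras-/- females. The 4 groups overlapped, and the same median over all genes stayed between -0.01 and 0.01 in each library. APP/PS1/Hras-/- female 1 was above the mean for 35 of the 36 genes, all but Jun, and was the highest library for 13: Fosb, Fosl2, Egr1, Egr2, Egr3, Klf2, Klf10, Bdnf, Homer1, Ier5, Dusp5, Gadd45b and Tiparp. APP/PS1/Hras-/- male 3 was the highest for 8: Fos, Junb, Egr4, Nr4a1, Ier2, Dusp1, Btg2 and Sik1. These were the 2 libraries with the most members at their top. At the other end, APP/PS1/Hras-/- male 2 was the lowest library for 10 genes and APP/PS1 female 1 for 7, and both were below the mean for 31 of 36. APP/PS1 female 1 was among the 3 lowest libraries for 23 genes and APP/PS1/Hras-/- male 2 for 20, while over all genes those shares were 20.6% and 22.9%.

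APP/PS1 female 2 was among the 3 lowest for 19 of the 36 genes and APP/PS1/Hras-/- male 1 for 13, against 30.7% and 28.9% of all genes. APP/PS1/Hras-/- male 1 was also among the 3 highest for 11 of the 36, near the 30.9% of all genes. It was the top library for Jun, Nr4a3 and Klf4 and the bottom library for Arc, Nptx2, Ier5, Dusp5 and Trib1. The high Trh of APP/PS1/Hras-/- male 1 and of APP/PS1 females 1 and 2, and the high choroid plexus sum of APP/PS1 female 2, stand beside these counts, and their part in them was not tested. APP/PS1/Hras-/- male 2, the library with the most members at their lowest, had Trh at 0.913 CPM.

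**Figure D3:**
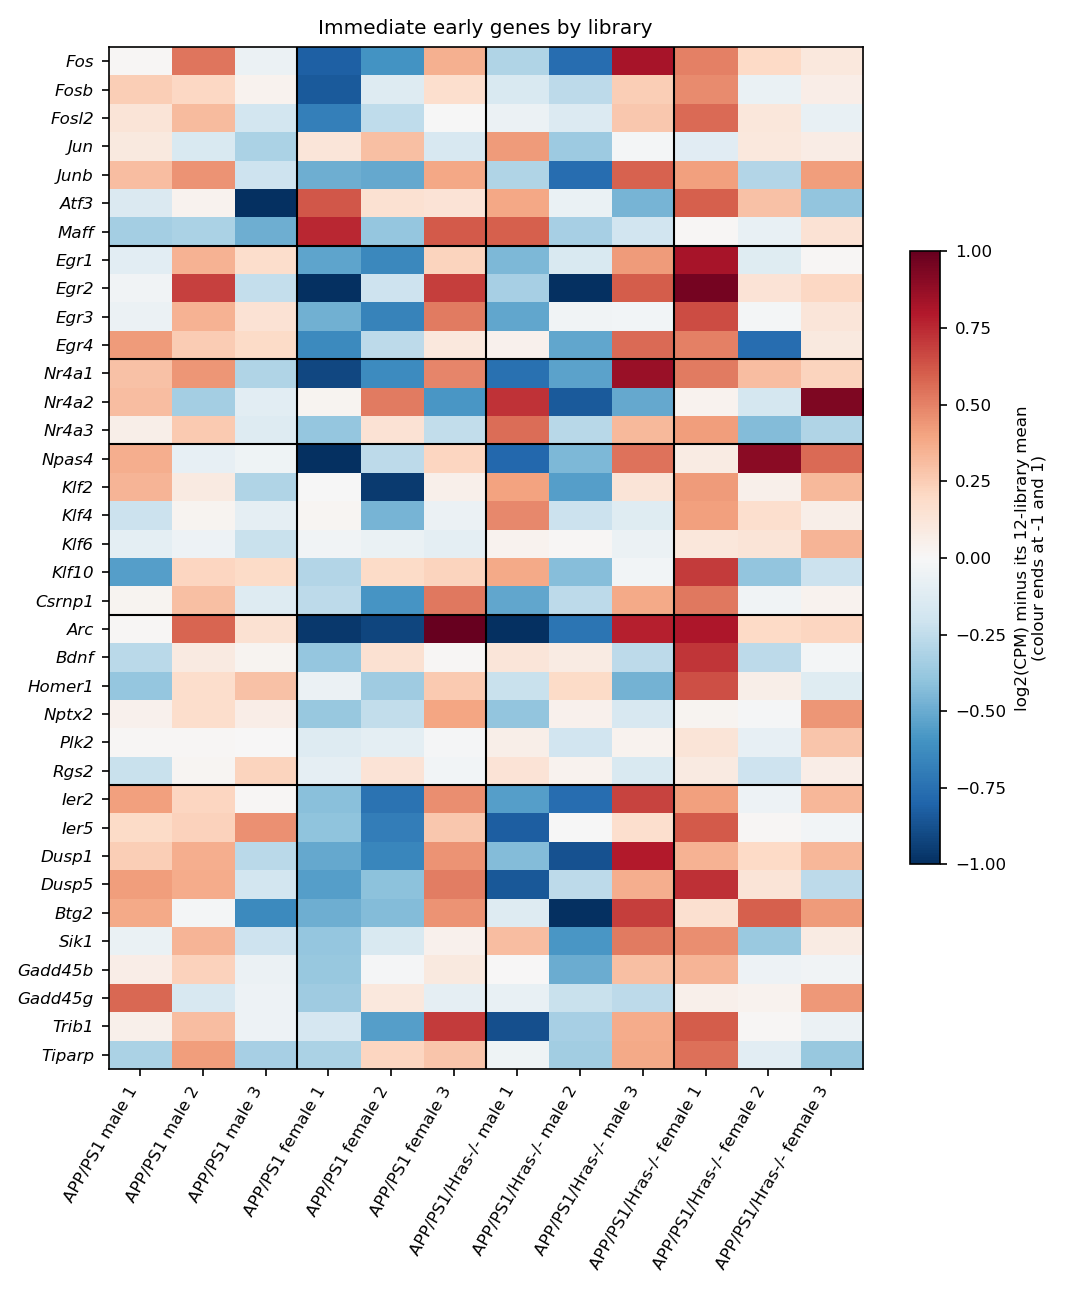
Each of the 36 genes (rows, ordered by subset with lines between subsets) in each of the 12 libraries (columns, with lines between groups), as log2 CPM minus the gene's mean of log2 CPM over the libraries, with colours ending at -1 and 1. APP/PS1/Hras-/- female 1 is above the mean for 35 of 36 genes, and APP/PS1/Hras-/- male 2 and APP/PS1 female 1 are below it for 31 each.

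Over both sexes, none of the 36 genes passed the test between APP/PS1/Hras-/- and APP/PS1 mice (edgeR quasi-likelihood test, Benjamini-Hochberg adjusted p under 0.05 over the 17307 genes), and DESeq2 called none. The background was low too, with 0.0173% of all genes called in edgeR and 0.0193% in DESeq2. At an unadjusted p under 0.05 there was 1 of 36 in edgeR and in DESeq2, Klf6, against 1.68% of all genes in edgeR. The log2 difference was above 0 for 30 of the 36 and for 51.1% of all genes, but the differences were small, with a median of 0.06 over the members and 0.00 over all genes, and a range from -0.09 to 0.31. That count rested on single mice: it was 16 of 36 without APP/PS1/Hras-/- female 1 and 18 of 36 without APP/PS1 female 1. No member had all 6 mice of a genotype above or below all 6 of the other, as was so for 0.116% of all genes.

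Klf6 stood at 49.6, 51.2 and 45.5 CPM in APP/PS1 males, at 51.8, 50.8 and 49.8 in APP/PS1 females, at 54.6, 53.7 and 51.1 in APP/PS1/Hras-/- males and at 57.4, 58.2 and 67.4 in APP/PS1/Hras-/- females. The APP/PS1/Hras-/- females lay above every other mouse, while APP/PS1/Hras-/- male 3 lay within the range of the APP/PS1 mice. The log2 difference over both sexes was 0.19 with an SE of 0.059 (edgeR adjusted p = 1.0, unadjusted p = 0.0052). Klf4, a related factor, had a difference of 0.27 with an SE of 0.14. Npas4 had the largest difference over both sexes, 0.31, with a 95% interval from -0.41 to 1.03, computed from the SE and the degrees of freedom of the fit. For the activity marks the intervals were wide on either side of 0, from -0.47 to 0.90 for Fos, from -1.0 to 1.02 for Arc, from -0.35 to 0.75 for Egr1 and from -0.55 to 1.0 for Nr4a1. The steady genes were bounded closely, with -0.19 to 0.17 for Rgs2 and -0.08 to 0.23 for Plk2.

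In males no member passed the test in edgeR or DESeq2 (0.0116% of all genes in edgeR and 0.0128% in DESeq2), and none had an unadjusted p under 0.05 in either (3.91% of all genes in edgeR). The log2 difference between APP/PS1/Hras-/- and APP/PS1 males was above 0 for 11 of the 36 genes, against 51.5% of all genes, with a median of -0.12. Without APP/PS1/Hras-/- male 2 it was above 0 for 21 of 36, with a median of 0.02, and without APP/PS1/Hras-/- male 3 the median was -0.31. All 4 Egr factors had differences below 0, with a median of -0.27, from -0.16 for Egr1 to -0.36 for Egr2, but that median was -0.04 without APP/PS1/Hras-/- male 2 and -0.48 without APP/PS1/Hras-/- male 3. Among the late effectors 1 of 6, Bdnf, the secreted neurotrophin, was above 0 at 0.04, and the median was -0.12. AP-1 and related factors had 3 of 7 above 0 and a median of -0.07, Nr4a receptors 1 of 3 and -0.02, the other transcription factors 3 of 6 and -0.00, and the signalling regulators 3 of 10 and -0.21. Ier5, an immediate early protein linked to growth and the heat shock response, had the lowest difference of the members, -0.45 with a 95% interval from -1.13 to 0.23. It stood at 76.2, 77.9 and 91.1 CPM in APP/PS1 males and at 37.6, 66.5 and 75.0 in APP/PS1/Hras-/- males. Nptx2, a secreted pentraxin that gathers AMPA receptors, stood at 43.4, 47.5 and 43.9 CPM in APP/PS1 males and at 32.0, 43.3 and 37.5 in APP/PS1/Hras-/- males, a difference of -0.26 with an interval from -0.68 to 0.17. These 2 were the only members whose groups did not overlap in males, both lower in APP/PS1/Hras-/-, where 5.22% of all genes were likewise lower without overlap. The RNA integrity number was 7.8 to 8.3 in APP/PS1 males and 8.6 to 8.7 in APP/PS1/Hras-/- males, without overlap. With that number as a covariate the median of the late effectors in males was -0.34. Gadd45g, Homer1 and Jun then had an unadjusted p under 0.05, as Dusp1 and Ier2 did without APP/PS1/Hras-/- male 3 and Gadd45g without APP/PS1 male 2, and no member was called in any of these fits. The share of all genes with such a p is given for the main edgeR fits only. Members named from other fits thus have no background beside them.

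In females no member passed the test in edgeR or DESeq2 (0.0116% of all genes in edgeR and 0.0161% in DESeq2), and Fosl2 and Klf6 had an unadjusted p under 0.05 in both tools (3.81% of all genes in edgeR). The log2 difference was above 0 for 31 of the 36 genes, against 50.5% of all genes, with a median of 0.29. All 4 Egr factors were above 0 with a median of 0.44, all 3 Nr4a receptors with 0.30, and all 6 other transcription factors with 0.32. The late effectors had 5 of 6 above 0 and a median of 0.23, the signalling regulators 9 of 10 and 0.30, and AP-1 and related factors 4 of 7 and 0.35. The 5 members below 0 were Jun at -0.07, Atf3 at -0.11, Maff at -0.38, Rgs2 at -0.02 and Tiparp at -0.00. Thus the AP-1 subset divided into Fos, Fosb, Fosl2 and Junb, at 0.35 to 0.54, and the other 3. A single mouse moved these values. Without APP/PS1 female 3 the median over the members was 0.53 and 11 members had an unadjusted p under 0.05, and without APP/PS1 female 1 the median was 0.17, with no member called either time. The share of all genes with such a p without APP/PS1 female 3 is not given, so the count of 11 has no background beside it. Over the 12 libraries left out in turn, the median of the Egr factors ran from 0.17 without APP/PS1/Hras-/- female 1 to 0.87 without APP/PS1 female 3, and that of the Nr4a receptors from 0.066 without APP/PS1 female 3 to 0.50 without APP/PS1/Hras-/- female 2.

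Fosl2, a Fos-related subunit with slower kinetics, stood at 40.4, 54.5 and 65.0 CPM in APP/PS1 females and at 96.3, 70.6 and 61.8 in APP/PS1/Hras-/- females. The ranges overlapped, and the log2 difference was 0.52 with an SE of 0.21 (edgeR adjusted p = 0.991, unadjusted p = 0.032). For Klf6 it was 0.27 with an SE of 0.081 (edgeR adjusted p = 0.991, unadjusted p = 0.0058). Fosl2 lost an unadjusted p under 0.05 in edgeR without the filter on low counts and with the RNA integrity number as a covariate. The same was so in a fit of these 2 groups alone, and without APP/PS1 female 1, APP/PS1 female 2 or APP/PS1/Hras-/- female 1. It was so as well without APP/PS1 female 2 together with APP/PS1/Hras-/- male 1. Klf4 stood at 8.96, 6.39 and 8.48 CPM in APP/PS1 females and at 11.7, 9.96 and 9.20 in APP/PS1/Hras-/- females, a difference of 0.37 with an interval from -0.05 to 0.79. Klf6 and Klf4 were the 2 members whose groups did not overlap in females, both higher in APP/PS1/Hras-/-, as were 4.33% of all genes. Npas4 had the largest difference, 0.83 with an interval from -0.08 to 1.74. For Fos it was 0.54 (-0.44 to 1.52), for Egr1 0.57 (-0.17 to 1.30), for Nr4a1 0.57 (-0.54 to 1.68) and for Arc 0.41 (-1.05 to 1.87). The intervals of these 5 genes include 0 and also include differences of more than 2-fold.

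**Figure D4:**
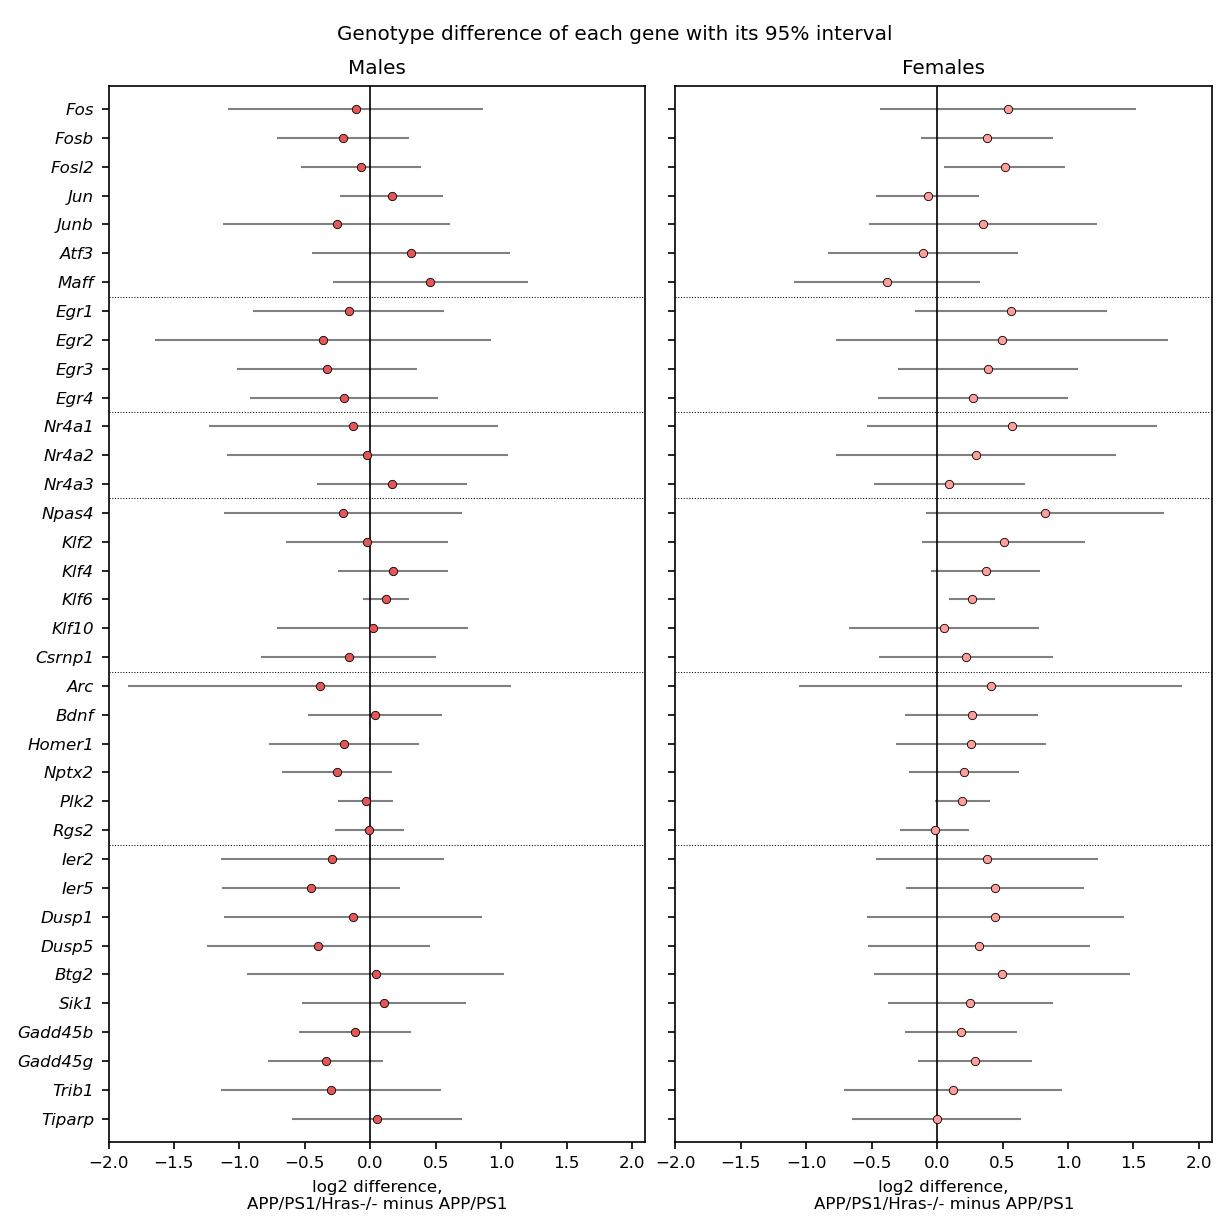
Log2 difference of each of the 36 genes (rows, with dotted lines between subsets) between APP/PS1/Hras-/- and APP/PS1 mice (x axes), in males on the left and in females on the right, with 95% intervals (n = 3 against 3). In males 11 points lie above 0 and in females 31, and the intervals of all genes but Fosl2 and Klf6 in females include 0.

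The genotype difference in females minus that in males, the interaction, was tested directly. No member passed in edgeR or DESeq2, and no gene of the table did (0% called), while 7.21% of all genes had an unadjusted p under 0.05 in edgeR. Among the members Gadd45g alone had such a p in edgeR, and Fosl2, Gadd45g and Ier5 had it in DESeq2. With the RNA integrity number as a covariate Homer1 and Jun had it in edgeR in place of Gadd45g. No member had it in edgeR with upper quartile scaling, or without APP/PS1 male 1, APP/PS1 female 1 or APP/PS1/Hras-/- male 2. Without APP/PS1/Hras-/- female 3 Fosl2 alone had it. The interaction was above 0 for 30 of the 36 genes, against 49% of all genes, with a median of 0.46. The median was 0.72 over the 4 Egr factors, 0.59 over the AP-1 subset, 0.51 over the signalling regulators, 0.34 over the late effectors, 0.32 over the Nr4a receptors and 0.29 over the other transcription factors. With the RNA integrity number as a covariate the order of these medians changed, with 1.22 for the Egr factors, 0.26 for the AP-1 subset and -0.04 for the Nr4a receptors. Without APP/PS1 female 3, 11 members had an unadjusted p under 0.05, without APP/PS1/Hras-/- male 3, 9 members did, and no member was called in either case. Gadd45g was not among the members of either count. The share of all genes with such a p in these fits is not given, so neither count has a background beside it. The median of the Egr factors ran from 0.43 without APP/PS1/Hras-/- female 1 to 1.1 without APP/PS1 female 3.

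Gadd45g, a stress sensor that takes part in DNA demethylation, stood at 11.5, 6.88 and 7.42 CPM in APP/PS1 males, at 6.02, 8.29 and 7.24 in APP/PS1 females, at 7.32, 6.6 and 6.4 in APP/PS1/Hras-/- males and at 7.97, 7.89 and 10.4 in APP/PS1/Hras-/- females. Its interaction was 0.63 with an SE of 0.29 (edgeR adjusted p = 0.667, unadjusted p = 0.046), and 1 APP/PS1 male held the highest value. Ier5 had an interaction of 0.90 with an interval from -0.06 to 1.86, and Npas4 the largest, 1.03 with an interval from -0.25 to 2.32. Maff had the lowest, -0.84 with an interval from -1.87 to 0.19, and Jun and Atf3 were below 0 as well, at -0.24 and -0.42.

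Females and males were also compared within each genotype. In APP/PS1 mice the log2 difference of females from males was above 0 for 7 of the 36 genes, against 51.6% of all genes, with a median of -0.21. No member passed in edgeR or DESeq2 (0.052% of all genes called in edgeR and 0.167% in DESeq2). Maff alone had an unadjusted p under 0.05 in edgeR, against 10.7% of all genes, and none did in DESeq2. It stood at 1.07, 1.09 and 0.962 CPM in males and at 2.28, 1.04 and 2.07 in females, a difference of 0.79 with an interval from 0.06 to 1.52 (edgeR adjusted p = 0.441). Without APP/PS1 female 1 the count above 0 was 14 of 36, and without APP/PS1 female 2 it was 11. Without APP/PS1 female 3, 6 members had an unadjusted p under 0.05 (Egr1, Egr3, Fosb, Fosl2, Ier5 and Nptx2), and with the RNA integrity number as a covariate 2 did (Homer1 and Jun), with none called either time. The share of all genes in these fits is not given, so these counts have no background beside them. Atf3 was higher in all 3 females, with 3.04, 2.19 and 2.17 CPM against 1.78, 2.02 and 0.893 in males, and Egr4 and Plk2 were lower in all 3, where 10.2% of all genes were higher and 9.9% lower without overlap. Egr4 stood at 19.8, 17.6 and 16.8 CPM in males and at 9.47, 12.3 and 15.9 in females, a difference of -0.53 with an interval from -1.25 to 0.19. Plk2 stood at 184, 185 and 184 CPM in males and at 168, 171 and 182 in females, a difference of -0.08. The RNA integrity number was 7.8 to 8.3 in APP/PS1 males and 8.5 to 8.6 in APP/PS1 females, without overlap. Of the markers, all 7 microglia genes (median 0.50), all 7 astrocyte genes (0.26), all 13 endothelial and mural genes (0.24), all 8 leptomeningeal genes (0.65) and all 8 choroid plexus genes (3.09) were above 0, and 2 of 12 excitatory neuron genes (-0.23). The choroid plexus sum was 205, 37.6 and 38.7 CPM in the males and 43.2, 3113 and 73.0 CPM in the females. APP/PS1 male 1 thus exceeded APP/PS1 females 1 and 3 in that sum. No gene of these lists passed the test, and the part of these differences and of the RNA integrity number in the members' values was not tested.

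In APP/PS1/Hras-/- mice the difference of females from males was above 0 for 30 of 36 genes, against 50.1% of all genes, with a median of 0.25. No member passed in edgeR or DESeq2 (0.0462% of all genes called in edgeR and 0.0353% in DESeq2; in DESeq2, 2 members had no adjusted p). Klf6 alone had an unadjusted p under 0.05 in both tools, against 2.64% of all genes in edgeR, with a difference of 0.20 and an interval from 0.03 to 0.37 (edgeR adjusted p = 1.0). Klf6, Gadd45g and Egr3 were higher in all 3 females than in all 3 males, as were 3.14% of all genes. Egr3 stood at 133, 187 and 187 CPM in males and at 299.7, 188 and 207 in females, a difference of 0.46 with an interval from -0.23 to 1.14. Without APP/PS1/Hras-/- male 3, 4 members had an unadjusted p under 0.05 (Dusp1, Ier2, Npas4 and Nr4a1), with none called. The share of all genes in that fit is not given. The RNA integrity number again parted the sexes, at 8.6 to 8.7 in males and 8.3 to 8.5 in females. With that number as a covariate Homer1 alone had an unadjusted p under 0.05 in edgeR, and no member was called. Klf6 also lost such a p in a fit of these 2 groups alone, without the filter on low counts and without APP/PS1/Hras-/- female 3. Of the markers, 11 of 12 excitatory neuron genes (median 0.14) and all 7 microglia genes (0.15) were above 0, and no choroid plexus gene was (-0.60). Their part was not tested. These sex comparisons and the genotype comparisons use the same 4 groups, so their counts are not independent of each other.

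The subsets lay at different distances from the mean in the same mouse. In APP/PS1/Hras-/- female 1 the median deviation from the 12-library mean was 0.74 over the Egr factors, 0.47 over the AP-1 subset, 0.42 over the Nr4a receptors and 0.38 over the late effectors. In APP/PS1 female 1 it was -0.58, -0.49, -0.38 and -0.25 in the same order. Of these 4 subsets the Egr factors were thus the farthest from the mean and the late effectors the nearest in both of these libraries. In APP/PS1/Hras-/- male 1 the subsets parted, with 0.56 over the Nr4a receptors and -0.39 over the Egr factors. In APP/PS1/Hras-/- male 3 the values were 0.49 for the Egr factors, 0.33 for the Nr4a receptors, 0.25 for the AP-1 subset and -0.16 for the late effectors. The SD between mice of a group, taken on the mean deviation of a subset on the log2 scale, was 0.45 for the Egr factors, 0.29 for the Nr4a receptors, 0.24 for the AP-1 subset and 0.22 for the late effectors. The SD was 0.34 for the 10 signalling regulators and 0.19 for the 6 other transcription factors. The subsets differ in size, and a value over 3 genes can vary more than one over 7 for that reason. The order of these SDs was not that of size, however.

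**Figure D5:**
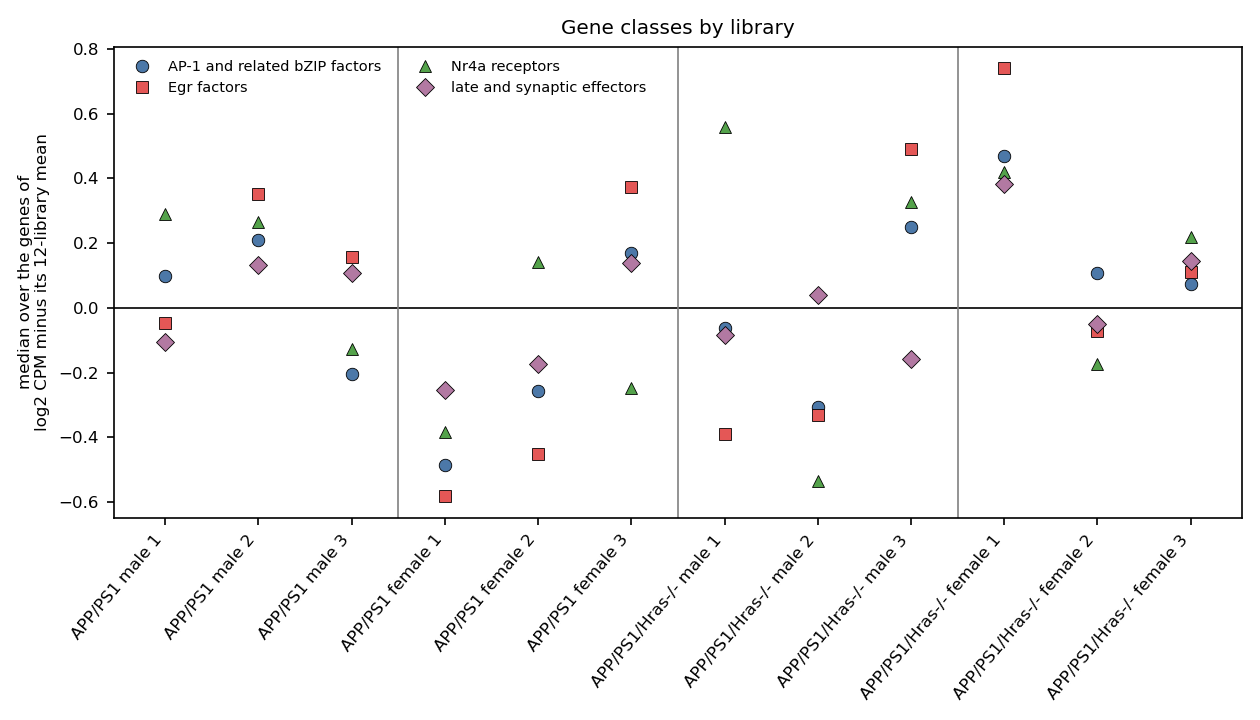
Median deviation of the AP-1, Egr, Nr4a and late effector subsets from the 12-library mean of log2 CPM (y axis) in each library (x axis, by group), with a mark per subset. The Egr factors reach 0.74 in APP/PS1/Hras-/- female 1 and -0.58 in APP/PS1 female 1, and the Nr4a receptors part from the Egr factors in APP/PS1/Hras-/- male 1.

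A wider list of 35 other activity-regulated genes had 34 tested, and none passed in any of the 6 comparisons. Their log2 differences were above 0 for 18 of 34 over both sexes (median 0.01), for 8 of 34 in males (-0.10) and for 27 of 34 in females (0.13), and the interaction for 28 of 34 (0.27). Between the sexes they were above 0 for 12 of 34 in APP/PS1 mice (median -0.09) and for 27 of 34 in APP/PS1/Hras-/- mice (0.14). The genes with the smallest p in females were Pcsk1, which cuts prohormones, at 0.32 and Arl4d, a small GTPase, at 0.51, and in males Amigo3, a membrane protein, at -0.61 and Jund, a Jun family member that activity induces little, at -0.38. Over both sexes they were the neuropeptide gene Npy at -0.17 and Pcsk1 at 0.14, and for the interaction Arl4d at 0.75 and Dnajb5, a co-chaperone, at 0.40. Between the sexes they were Arl4d at -0.57 and Rasl11a, a small GTPase, at 0.57 in APP/PS1 mice, and Cdkn1a, a cell cycle inhibitor, at 0.52 and Dnajb5 at 0.25 in APP/PS1/Hras-/- mice.

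The 40 genes that carry the signal to the immediate early promoters, from channels and kinases to CREB and serum response factor, were all tested, and none passed. Except over both sexes, their medians lay nearer to 0 than those of the wider list. The log2 difference was above 0 for 26 of 40 over both sexes (median 0.01), for 23 of 40 in males (0.02) and for 26 of 40 in females (0.04). Their interaction was above 0 for 23 of 40, with a median of 0.03. Between the sexes they were above 0 for 16 of 40 in APP/PS1 mice (median -0.01) and for 21 of 40 in APP/PS1/Hras-/- mice (0.00). The smallest p of the interaction belonged to Camk2b, a subunit of CaM kinase II, at 0.35 with an SE of 0.12 (edgeR adjusted p = 0.667), and next to Camkk1 at 0.35. Over both sexes Mef2a, an activity-dependent factor, was at 0.10 and Crebbp, the CREB-binding coactivator, at 0.09. In males the smallest p belonged to Camk2b at -0.18 and Map2k2, a kinase above ERK, at -0.25, and in females to Camk2b at 0.17 and Crebbp at 0.13. Between the sexes it belonged to Camk2b at -0.26 and Camkk1 at -0.31 in APP/PS1 mice, and to Rps6ka5, a nuclear kinase that acts on CREB, at -0.22 and Grin2a, an NMDA receptor subunit, at 0.23 in APP/PS1/Hras-/- mice. Camk2b stood at 920.3 to 967 CPM in APP/PS1 males, 738 to 811 in APP/PS1 females, 768 to 867 in APP/PS1/Hras-/- males and 845 to 941 in APP/PS1/Hras-/- females.

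The cell type markers give the tissue content beside these values. In males, 2 of 12 genes of excitatory cortical neurons had a log2 difference above 0 (median -0.13), and in females 10 of 12 (median 0.26), the same signs as the members' medians. The summed CPM of these 12 genes was 6395 to 6605 in APP/PS1 males, 5401 to 6409 in APP/PS1 females, 6039 to 6276 in APP/PS1/Hras-/- males and 6044.5 to 6642 in APP/PS1/Hras-/- females. Inhibitory neuron genes were above 0 for 3 of 9 in males (-0.08) and for 5 of 9 in females (0.02), and striatal genes for 3 of 12 (-0.21) and 1 of 12 (-0.31). Of 6 subcortical genes tested of 8 listed, 1 was above 0 in males (-0.20) and 1 in females (-0.14). All 8 choroid plexus genes were above 0 in males (1.48) and none in females (-2.12), a list that APP/PS1 female 2 leads. Astrocyte genes were above 0 for 6 of 7 in males (0.13) and for none in females (-0.19), and microglia genes for 5 of 7 (0.15) and none (-0.23). Endothelial and mural genes were above 0 for 11 of 13 (0.15) and 6 of 13 (-0.01), leptomeningeal genes for 6 of 8 (0.16) and none (-0.52), oligodendrocyte genes for 5 of 6 (0.05) and 6 of 6 (0.14), and blood genes for 3 of 4 (0.51) and none of 4 (-0.91). No gene of these lists passed the test in either sex, no listed marker was at 0 in every library, and the part of these differences in the members' values was not tested.

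Overlapping annotation touches 9 of the 36 genes: Jun with Junos, Junb with Prdx2, Atf3 with Gm24748, Csrnp1 with Cx3cr1 and 1700019L13Rik, Bdnf with Gm45346, Homer1 with Gm47075 and Gm47088, Dusp1 with Ergic1 among others, Dusp5 with AC137853.2 and Tiparp with 4931440P22Rik. How the counting treated overlapping genes, and whether it used strand, is not given in the sources used here, and the counts of these 9 genes are uncertain to that extent. Cx3cr1 lies on the strand of Csrnp1, Gm47075 and Gm47088 on that of Homer1, and AC122252.4 and AC122252.1 on that of Dusp1, so strand would not separate these. Cx3cr1 is a receptor of microglia and abundant in brain. The 36 genes lie on 17 chromosomes.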

How the data were processed

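The deposited table holds counts of reads per gene for 12 libraries, not normalized. The kit, per the labels, was TruSeq Stranded mRNA. Tools in the submitters' processing notes are HISAT2 2.1.0, featureCounts, Trimmomatic 0.33 and FastQC 0.11.7, and the builds there are mm10 and mm9, with no role stated. How multiply aligned reads and strand were treated, and the annotation release, were not given in the sources used here.

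Ensembl identifiers were matched to GENCODE M21, and 37 of the 54532 had no entry. Library totals ran from 13984692 to 20174131, and all 12 columns were used. Genes were kept by filterByExpr over the 4 groups of genotype and sex (17307 genes). Tests were quasi-likelihood F tests of edgeR 4.0.16 (R 4.3.3, TMM scaling, robust), with Benjamini-Hochberg adjustment over all genes tested and a threshold of 0.05. The difference over both sexes was fitted with sex and genotype as additive terms, and all others from a model of 4 group means over 12 libraries, which share 1 estimate of the spread. The SE is the log2 difference over the root of its F statistic, and 95% intervals use the fit's degrees of freedom. Log2 CPM used a prior count of 2, except in the heat map and in the ratios of libraries, which use CPM itself. The test was checked on simulated data.

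The members and lists were chosen with earlier results of these data known, so the counts over them are descriptions and no test was made over a list. All 36 members were described in every comparison. Of the 2 lists of other pathway genes, those with the smallest p were named, since none passed. Marker lists were given by counts and sums. Alternatives were RLE and upper quartile scaling, other filters on low counts, DESeq2 1.42.0 (31099 genes tested over both sexes and 31129 in the other comparisons, with its own filter), the RNA integrity number as a covariate, no sex term, fits of 2 groups alone, each library left out in turn, and the omission of APP/PS1/Hras-/- male 1 together with APP/PS1 female 2. Promoter windows came from the RefSeq table of GRCm38.p6.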

Additional observations from a re-analysis of the deposited data

Results flagged for a closer look

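In each genotype the 6 mice were examined for a value far from the others, with Dixon's ratio and its 95% critical value. Of 72 such groups of values (36 genes in 2 genotypes) 2 exceeded it, and chance alone flags about 1 in 20. Bdnf, the neurotrophin, stood at 43.2 CPM in APP/PS1/Hras-/- female 1 and at 21.9 to 28.6 CPM in the other 5 APP/PS1/Hras-/- mice. The same library was the highest of the 12 for 12 other members. Klf6 stood at 45.5 CPM in APP/PS1 male 3 and at 49.6 to 51.8 CPM in the other 5 APP/PS1 mice. That library was also the lowest of the 12 for Atf3 and Maff.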

How the results depend on the processing

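No member was called in any comparison under any alternative run. No paired analysis was possible because the labels give animal numbers that no 2 groups share, and replicate numbers only follow the order of the samples. Called genes over the whole table numbered 6 over both sexes, 4 in males, 5 in females and 52 between the sexes in APP/PS1 mice with DESeq2 (against 3, 2, 2 and 9), and 5 over both sexes and 4 in females without the filter on low counts. With the RNA integrity number as a covariate the median log2 difference was -0.34 for the late effectors in males, the interaction was 0.26, 1.22 and -0.0389 for the AP-1, Egr and Nr4a subsets, and the sex difference of the Nr4a receptors in APP/PS1/Hras-/- mice was -0.13.

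With each of the 12 libraries left out in turn, the members above 0 ranged from 16 to 34 over both sexes, from 10 to 21 in males and from 6 to 14 between the sexes in APP/PS1 mice (11 without APP/PS1/Hras-/- male 1 together with APP/PS1 female 2). The medians ranged in males from -0.21 to 0.18 for the AP-1 subset and from -0.56 to 0.024 for the signalling regulators. In females they ranged from 0.15 to 0.62 for the AP-1 subset, from 0.25 to 0.52 for the other transcription factors and from 0.12 to 0.65 for the signalling regulators. The interaction ranged from 0.30 to 0.72 over all members and from 0.31 to 0.89 over the signalling regulators. Between the sexes the range was -0.29 to 0.027 for the other transcription factors in APP/PS1 mice and -0.022 to 0.32 for the Nr4a receptors in APP/PS1/Hras-/- mice. The cause of these shifts was not tested. Of 4284 values of single members under alternatives, 315 changed sign, none of them a called value, and 153 moved by more than 1 SE. Scaling moved the median of all genes by at most 0.03. The depth limits the lowest members most, since Atf3 rests on 13 to 60 counts per library and Maff on 14 to 45.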
